A study of Mus musculus with 33 samples.

Results

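The 10 genes described here carry glucose into the heart cell, break it down by glycolysis, and exchange pyruvate with lactate. They are the glucose transporter genes Slc2a1 and Slc2a4, the hexokinase genes Hk1 and Hk2, the phosphofructokinase genes Pfkm and Pfkl, the aldolase gene Aldoa, the enolase gene Eno3, and the lactate dehydrogenase genes Ldha and Ldhb. They were chosen by symbol, and all 10 were present among the 14862 gene rows of the count table.

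The counts come from single ventricular cells of mice with mAG-hGem, a transgenic FUCCI reporter in which geminin is joined to a green fluorescent protein and lights up cycling cells. Cells of both reporter classes, positive and negative, were sorted at embryonic day 14.5 (E14.5) and at postnatal day 5 (P5). At E14.5 there were 10 positive and 11 negative cells, and at P5 there were 6 of each, 33 in all, and every group carries the reporter transgene. Antisense RNA amplification was used on the mRNA of each cell, and a PCR for Tnnt2, a cardiomyocyte gene, decided which cells were kept. The sources used here give neither the strain nor the number of animals, so each group counts as 1 sample, and its cells, which may share an animal, are not replicates. No difference below therefore has a test or a replicate check.

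The cells were first checked against markers of 5 cell classes, and a cell is called led by the class with the highest summed level. Cardiomyocyte markers led in all 21 E14.5 cells and in 5 of the 6 positive cells of P5, at 10373 to 106750 counts per 1000000 (CPM). The P5 positive cell L2P12 was not: its cardiomyocyte markers summed to 91.9 CPM and its endothelial markers to 2605 CPM. None of the 6 cells labelled P5 negative was led by cardiomyocyte markers, which summed to 0.691 to 371 CPM, while endothelial markers summed to 298 to 13051 CPM. Of these 6, L2N4, L2N7 and L2N9 were led by endothelial markers, L2N12 by fibroblast and mural markers, and L1N3 and L2N10 by red blood cell markers. L1N3 and L2N10 also had 2230 and 3597 CPM of endothelial markers, beside 3295 CPM in L2N7 and 2553 CPM in L2N9. Their class thus does not set them apart from endothelial cells. Among E14.5 cells, N10 also had 4973 CPM of fibroblast and mural markers. Ratios of the 10 genes in P5 positive over E14.5 positive cells are therefore given for all 6 cells and for the 5 led by cardiomyocyte markers. Where 1 M is 1000000, total counts per cell ran from 2.55 M in L1P5 to 38.5 M.

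Glucose enters cells through facilitative transporters: Slc2a1 encodes GLUT1, the basal transporter, and Slc2a4 encodes GLUT4, which insulin and contraction bring to the surface of muscle cells. Hexokinase traps glucose as glucose 6-phosphate, phosphofructokinase commits it to glycolysis, and aldolase and enolase act further down the path to pyruvate. Lactate dehydrogenase is a tetramer of A (Ldha) and B (Ldhb) subunits. The A form is usual in skeletal muscle and the B form in adult heart, which burns mainly fatty acids and takes up lactate, whereas the fetal heart relies more on glucose and lactate.

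The promoters of both lactate dehydrogenase genes are shown because the balance of this pair is followed through all groups below. Each sequence is the 250 bases before a start of the gene in RefSeq (GRCm38.p6), written 5′ to 3′ on the gene's strand. The gene spans given below are those of GENCODE M21. Its Ldha span starts earlier, at 46841475, so the Ldha window lies inside that span. Capitals mark ACGTG, the core letters of a hypoxia response element, read on either strand, so that CACGTG is read on both strands and counted as 1 site.
Ldha, chr7:46845554-46845803, plus strand: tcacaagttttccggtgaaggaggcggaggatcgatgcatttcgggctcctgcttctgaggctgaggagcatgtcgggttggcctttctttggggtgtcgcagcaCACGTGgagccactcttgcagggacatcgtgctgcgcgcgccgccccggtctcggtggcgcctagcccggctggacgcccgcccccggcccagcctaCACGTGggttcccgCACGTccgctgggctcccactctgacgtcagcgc
Ldhb, chr6:142507958-142508207, minus strand: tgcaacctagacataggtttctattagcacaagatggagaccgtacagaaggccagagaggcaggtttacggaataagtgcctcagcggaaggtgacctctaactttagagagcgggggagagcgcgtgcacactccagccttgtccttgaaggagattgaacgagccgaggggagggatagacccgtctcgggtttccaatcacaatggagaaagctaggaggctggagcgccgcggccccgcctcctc
The Ldha window held 3 such sites and the Ldhb window held 0. A second Ldha window, at a later RefSeq start, also held 0. Of the 10 genes, 9 had a window in the table used (Slc2a4 is not among them), with 16 windows in all. The letters ACGTG stood in 7 of these 16 windows, belonging to Slc2a1, Hk2, Pfkm, Aldoa and Ldha, beside 16.6% of 32851 windows of the same length. Windows of 1 gene can overlap, and the 2 Aldoa windows with a match overlap and hold the same site. A match is a description of the letters only.

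In P5 positive cells, Slc2a4, Pfkm, Pfkl, Aldoa, Eno3 and Ldhb stood at least 2-fold above the E14.5 positive cells, Slc2a1 was at least 2-fold lower, and Hk1, Hk2 and Ldha lay within 2-fold. These 6 higher and 1 lower genes stand beside 30.3% of 12261 tested genes that were at least 2-fold higher and 40.9% that were at least 2-fold lower. The median log2 ratio of the 10 genes was 1.84, and that of all tested genes was -0.39. With the 5 cardiomyocyte-led P5 positive cells, the counts were again 6 higher and 1 lower, the background was 24.5% higher and 49.0% lower, and the medians were 2.20 and -0.93. The plot of age ratios shows each gene with both sets of cells.

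**Figure D1:**
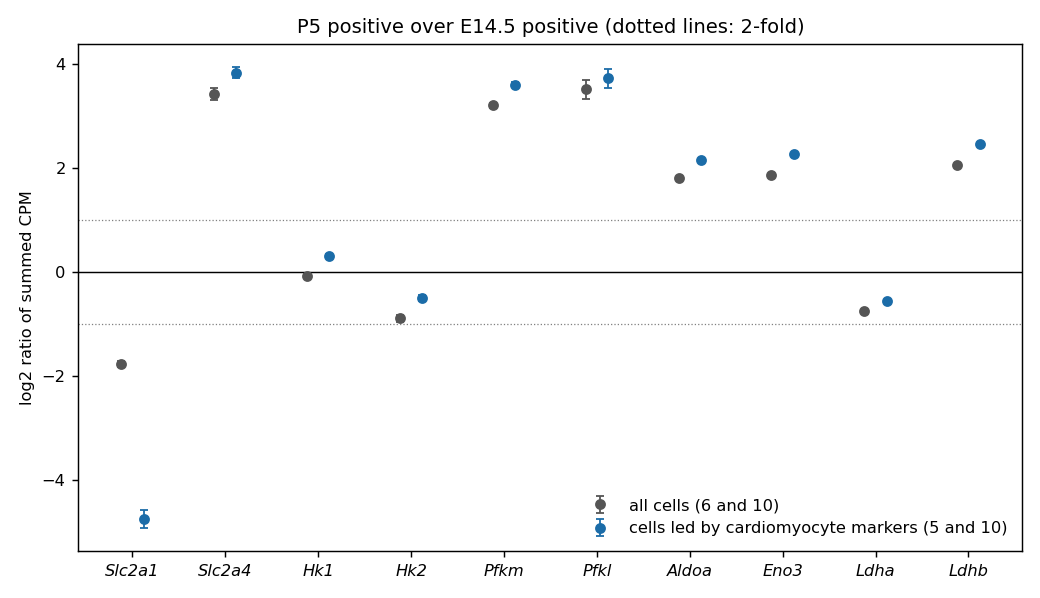
Log2 ratio of summed CPM for each of the 10 genes in P5 positive over E14.5 positive cells, with all 6 P5 cells and with the 5 led by cardiomyocyte markers; bars are exact 95% intervals that cover counting error only. Slc2a1 moves from -1.77 to -4.75 when the endothelial-led cell is left out, while the 6 higher genes stay higher in both sets.

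The transporters showed opposite differences between the ages. Slc2a1 (chromosome 4, 119108711 to 119137983, plus strand, mm10) reached 106 CPM when the E14.5 positive cells were summed (exact Poisson interval 104 to 107). The 10 cells ran from 22.4 CPM in G28 through a median of 72.5 to 665 CPM in G10, so every cell had the transcript and G10 held 40.3% of the counts. In P5 positive cells the sum was 31.0 CPM (29.9 to 32.1), and the reads came from only 2 cells. These were L2P12, the endothelial-led cell, at 115 CPM, and L2P7 at 21.8 CPM, while L1P5, L2P3, L2P8 and L2P10 had no read. In those 4 cells, 3 counts, the limit that counting error alone allows for a count of 0, would be 0.112 to 1.18 CPM. Amplified reads are not independent molecules, so this sets no limit on the transcripts in the cell. This is a log2 ratio of -1.77 (exact binomial interval -1.83 to -1.71), or 3.41-fold lower, and of -1.12 without G10. Among cardiomyocyte-led cells it was -4.75 (-4.93 to -4.58), or 26.9-fold lower, and the highest of these 5 cells lay below the lowest E14.5 positive cell.

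Slc2a4 (chromosome 11, 69942539 to 69948188, minus strand) had 4.88 CPM in E14.5 positive cells (4.54 to 5.23), from 0 through a median of 4.39 to 36.0 CPM in G10. P5 positive cells had 52.4 CPM (50.9 to 53.9). Of the 6 cells, 4 carried nearly all of it: L2P8 at 96.0, L2P3 at 75.9, L2P10 at 54.1 and L2P7 at 33.5 CPM. L1P5, the shallowest cell, had no read, and the endothelial-led L2P12 had 0.133 CPM. The age difference was a log2 ratio of 3.42 (3.31 to 3.54), or 10.7-fold, and of 3.83, or 14.2-fold, among cardiomyocyte-led cells. Without L2P8, the largest contributor, it was 2.82, and without G10 it was 4.25. The groups overlapped, because L1P5 and L2P12 lay among the lowest E14.5 cells and G10 lay just above L2P7.

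Of the reads of both transporters, Slc2a1 took 95.6% in E14.5 positive cells and 37.2% in P5 positive cells. Among cardiomyocyte-led P5 cells the share was 5.36% (exact binomial interval 4.75 to 6.01), and it was 0 in L2P3, L2P8 and L2P10 and 39.5% in L2P7. The ratio of Slc2a1 to Slc2a4 was 36.6-fold lower in P5 positive than in E14.5 positive cells, and 381-fold lower among cardiomyocyte-led cells. This change of a ratio does not depend on transcript length.

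**Figure D2:**
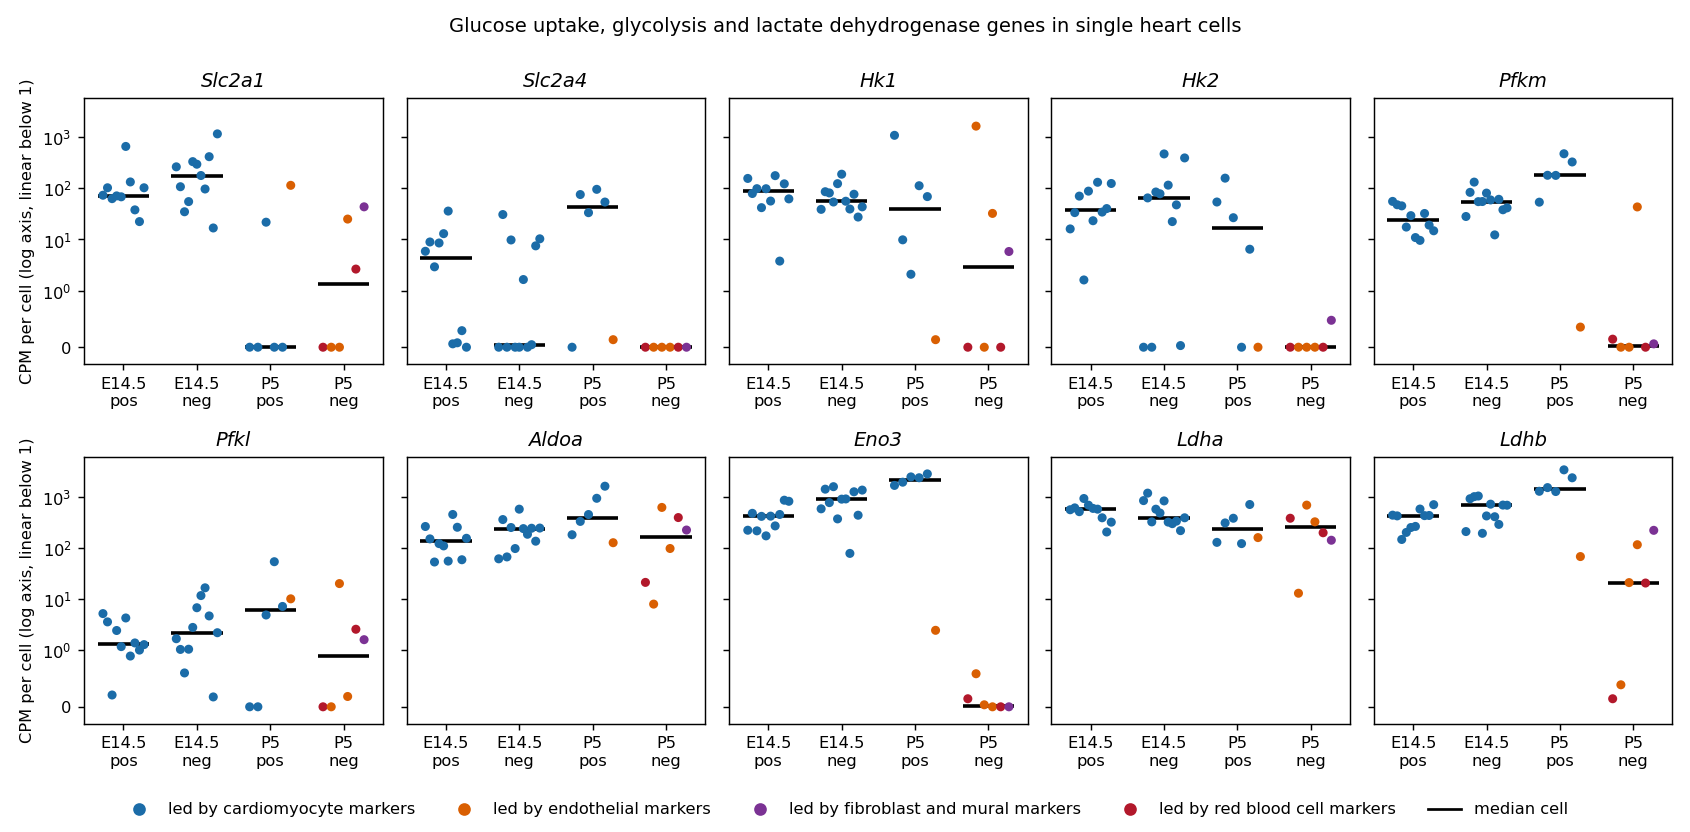
CPM of each of the 10 genes in every cell, by group, on an axis that is logarithmic above 1 CPM and linear below; each point is 1 cell, coloured by its leading marker class, and lines are medians over cells. Eno3 and Ldhb stand at 1278 to 3400 CPM in the 5 cardiomyocyte-led P5 positive cells and reach at most 0.583 and 222 CPM in the cells labelled P5 negative.

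The hexokinases differed less between the ages than between cells. Hk1 (chromosome 10, 62268855 to 62379908, minus strand), the widely expressed form, had 79.5 CPM in E14.5 positive cells (78.1 to 80.9), from 3.77 through 89.1 to 178 CPM. At P5, positive cells had 74.6 CPM (72.8 to 76.4), from 0.133 CPM in L2P12 through 39.5 to 1098 CPM in L1P5. Hk1 gave a log2 ratio of -0.09. It was 1.26 with equal weights for cells and -1.70 by the median cell. It was 0.31 among cardiomyocyte-led cells, -0.80 without L1P5, 0.06 with edgeR's TMM factors and 0.29 with DESeq2's size factors, so its direction depends on the cells and the scaling.

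Hk2 (chromosome 6, 82725025 to 82774454, minus strand), the form known from insulin-sensitive muscle, had 60.4 CPM in E14.5 positive cells (59.2 to 61.6), from 1.61 through 37.3 to 132 CPM. At P5, positive cells had 32.3 CPM, and L2P3, at 159 CPM, held 81.4% of the counts. For Hk2 the log2 ratio was -0.90 (-0.96 to -0.84), -0.50 among cardiomyocyte-led cells and -3.07 without L2P3. In single P5 cells the pair's reads came mainly from 1 of the genes. The Hk1 share of these reads was 5.83% in L2P3 and 7.22% in L2P7, but 91.5% in L2P10, 95.3% in L1P5 and 100% in L2P8. In the E14.5 positive cells this share ran from 9.87 to 96.3%.

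Phosphofructokinase transcripts differed both in level and in which gene led. Pfkm (chromosome 15, 98092589 to 98132451, plus strand), the muscle form, had 26.2 CPM in E14.5 positive cells (25.4 to 27), from 9.60 through 24.2 to 55.7 CPM. The P5 positive sum was 240 CPM (237 to 243). By cell these were 478 in L2P8, 330 in L2P10, 181 in L2P3, 180 in L2P7, 53.8 in L1P5 and 0.355 CPM in L2P12. Only L1P5 and L2P12 lay within or below the E14.5 range. Pfkm thus had a log2 ratio of 3.20 (3.15 to 3.24), or 9.17-fold, with 3.60 among cardiomyocyte-led cells and 2.45 without L2P8.

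Pfkl (chromosome 10, 77986947 to 78010083, minus strand), the liver form, was the lowest of the 10 genes per length at E14.5. It had 1.74 CPM in E14.5 positive cells (1.54 to 1.96), from 0.208 to 5.19 CPM, and 19.8 CPM in P5 positive cells (18.9 to 20.7). The P5 value rested on L2P8, which at 53.9 CPM held 79.2% of the counts, while L1P5 and L2P3 had no read. The log2 ratio of 3.51 (3.32 to 3.69) became 1.73 without that cell and was 3.72 among cardiomyocyte-led cells.

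The other phosphofructokinase gene, Pfkp, the platelet form, was the most abundant of the family at E14.5. Per kilobase of exon, Pfkm made up 17.3%, Pfkl 0.925% and Pfkp 81.8% of the 3 transcripts in E14.5 positive cells. Among cardiomyocyte-led P5 positive cells, Pfkm made up 77.5%, Pfkl 4.50% and Pfkp 18.0%. Of the reads of Pfkm and Pfkl alone, Pfkm took 93.8% at E14.5 and 93.3% at P5 in the same cells. The balance of this pair thus differed little in the sums. Among cardiomyocyte-led cells Pfkm was 12.1-fold and Pfkl 13.2-fold higher at P5, while Pfkp was 1.68-fold lower. The Pfkl value rested on L2P8, which held 90.5% of the Pfkl counts of these P5 cells. Their median was 4.87 CPM of Pfkl.

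Aldoa and Eno3 were both higher at P5. Aldoa (chromosome 7, 126795234 to 126800751, minus strand), the main muscle aldolase, had 184 CPM in E14.5 positive cells (182 to 187), from 53.2 through 137 to 454 CPM in G25. P5 positive cells had 648 CPM (643 to 653), from 127 CPM in L2P12 through 393 to 1625 CPM in L2P10. For Aldoa this is a log2 ratio of 1.81 (1.79 to 1.83), or 3.51-fold, and the cells of the groups overlapped. Without L2P10 it was 1.42, and among cardiomyocyte-led cells 2.15, or 4.43-fold.

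Eno3 (chromosome 11, 70657202 to 70662513, plus strand), the muscle enolase, had 491 CPM in E14.5 positive cells (488 to 495), from 173 through 419 to 864 CPM. At P5 the sum was 1782 CPM (1774 to 1791). The 5 cardiomyocyte-led cells stood between 1684 and 2830 CPM, all above the E14.5 positive cells, and L2P12 stood at 2.44 CPM. Eno3 had a log2 ratio of 1.86 (1.85 to 1.87), or 3.63-fold, and 2.26, or 4.80-fold, among cardiomyocyte-led cells. Eno1, the general enolase, was at 0 to 0.133 CPM in the summed counts of every group. The gene has near-identical copies and the rule for reads that match several places is not given in the sources used here, so no share of Eno3 against Eno1 can be read.

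In the lactate dehydrogenase pair the balance shifted towards Ldhb with age. Ldha (chromosome 7, 46841475 to 46855627, plus strand) had 470 CPM in E14.5 positive cells, from 206 through 569 to 933 CPM. The P5 sum was 279 CPM (275 to 282), from 122 through 235 to 712 CPM in L2P10. L2P8, L1P5 and L2P12, at 122, 129 and 160 CPM, lay below every E14.5 positive cell, and L2P3, L2P7 and L2P10 lay among them. The log2 ratio was -0.75 (-0.77 to -0.73), or 1.68-fold lower, and -0.57 among cardiomyocyte-led cells.

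Ldhb (chromosome 6, 142490249 to 142507957, minus strand) had 428 CPM in E14.5 positive cells (425 to 431), from 147 through 429 to 707 CPM. The P5 sum was 1790 CPM (1781 to 1798). The 5 cardiomyocyte-led cells stood between 1278 and 3400 CPM, the highest being L2P8, and none overlapped the E14.5 positive cells, while L2P12 stood at 68.0 CPM. For Ldhb the log2 ratio was 2.06 (2.05 to 2.08), or 4.18-fold, with 2.45, or 5.48-fold, among cardiomyocyte-led cells and 1.40 without L2P8. Of the 10 genes, Eno3 and Ldhb were higher and Slc2a1 lower with no overlap among cardiomyocyte-led cells. Over all tested genes 0.828% were higher and 1.25% lower in this way.

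The Ldha share of the pair's reads was 52.3% in E14.5 positive cells (exact binomial interval 52.1 to 52.6) and 13.5% in P5 positive cells (13.3 to 13.6). By cell it ran from 31.2% in G29 through 57.5% to 82.2% in G6 at E14.5, with 6 of 10 cells above 50%. At P5 it was 3.47% in L2P8, 9.09% in L1P5, 16.9% in L2P3 and 23.1% in both L2P7 and L2P10. The endothelial-led L2P12 stood apart at 70.2%. No cardiomyocyte-led P5 cell reached the lowest E14.5 positive cell. The ratio of Ldha to Ldhb was 7.05-fold lower in P5 positive cells, and 8.12-fold lower among cardiomyocyte-led cells. Per kilobase of exon, which corrects for the shorter Ldhb transcript, the Ldha share was 43.0% at E14.5 and 8.50% in cardiomyocyte-led P5 cells.

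**Figure D3:**
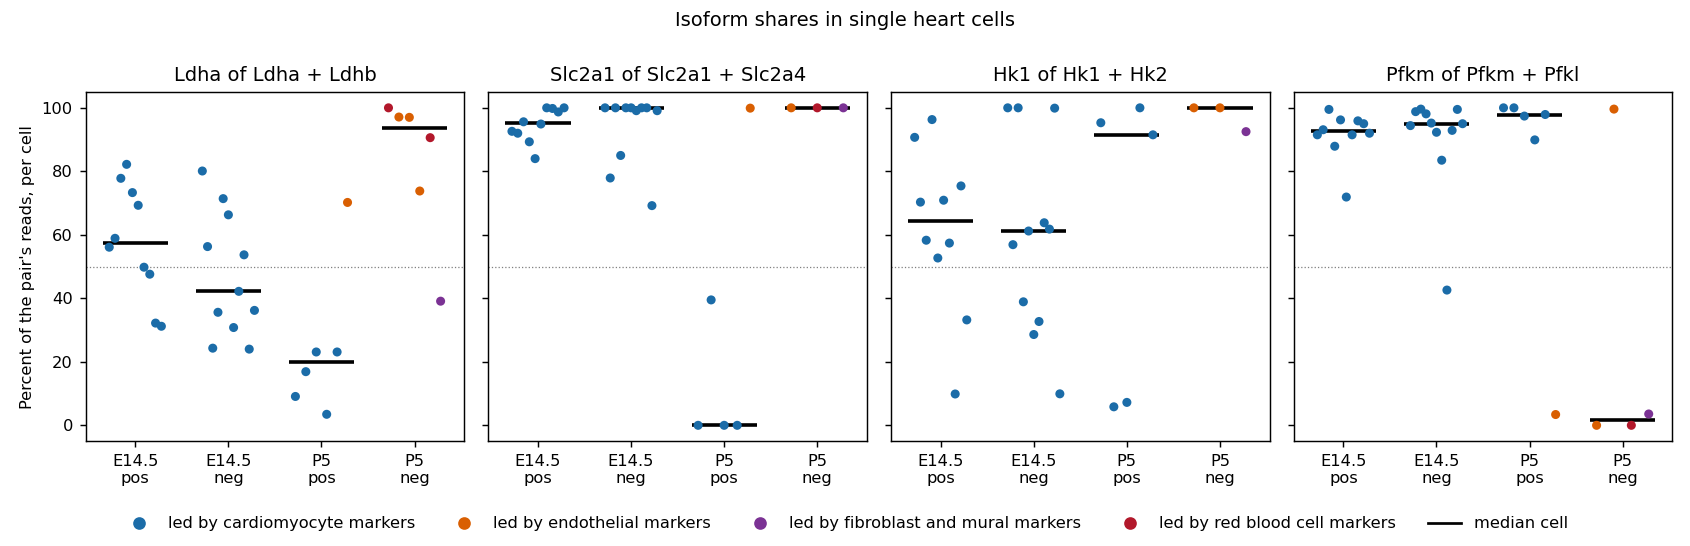
Share of a gene pair's reads (percent) taken by Ldha, Slc2a1, Hk1 and Pfkm in each cell with at least 20 reads of the pair, by group; each point is 1 cell, coloured by its leading marker class, and lines are medians over cells. The cardiomyocyte-led P5 positive cells lie between 3.47 and 23.1% for Ldha, below all 10 E14.5 positive cells.

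Levels can be ordered across genes only per length. Per kilobase of exon, the order in E14.5 positive cells was Ldhb (328 CPM per kilobase), Eno3 (314), Ldha (248), Aldoa (101), Slc2a1 (32.4), Hk1, Hk2, Pfkm, Slc2a4 and Pfkl (0.466). Ldhb, Eno3 and Ldha are neighbours whose cells overlapped widely. In cardiomyocyte-led P5 positive cells the order was Ldhb (1799), Eno3 (1506), Aldoa (448), Ldha (167), Pfkm (106), Slc2a4 (24.7), Hk1, Hk2, Pfkl and Slc2a1 (1.20). Slc2a1 thus went from place 5 to place 10, and Ldha from place 3 to place 4.

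Of the other genes of glucose metabolism, 53 in 6 lists were in the table and 48 had at least 10 counts over both groups. In P5 positive over E14.5 positive cells, 12 of the 48 were at least 2-fold higher, 19 lower and 17 within 2-fold, with a median log2 ratio of -0.54 beside -0.39 for all genes. Beside the 30.3% higher and 40.9% lower of all tested genes, these counts lie near the background. In the other glycolytic enzymes 4 were higher and 4 lower of 10. Gapdh, the glyceraldehyde-phosphate dehydrogenase, had 114 CPM at E14.5 and 638 CPM at P5, or 5.62-fold more (743 CPM in cardiomyocyte-led P5 cells). It has many processed copies in the genome. Only 3 of the 5 cardiomyocyte-led P5 cells reached 10 CPM of Gapdh, and L1P5 had 1.18 CPM. The lowest E14.5 positive cell, G8, had 17.6 CPM. L2P8 held 65.6% of the Gapdh counts of these 5 P5 cells. Pgam2, the muscle phosphoglycerate mutase, had 69.3 and 313 CPM, or 4.52-fold more (414 CPM in cardiomyocyte-led P5 cells).

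Of the 13 genes that handle lactate and pyruvate, 2 were higher and 5 lower, beside 30.3% and 40.9% of all tested genes. Slc16a1, the lactate carrier MCT1, had 140 CPM at E14.5 and 24.1 CPM at P5, or 5.79-fold less (31.8 CPM in cardiomyocyte-led P5 cells). Pdk1, a kinase that restrains pyruvate dehydrogenase, had 237 and 48.3 CPM, or 4.92-fold less, and L2P3 held 86.5% of its P5 counts. In cardiomyocyte-led P5 cells Pdk1 had 63.9 CPM, or 3.72-fold less than at E14.5. Glycogen genes gave 2 higher and 4 lower of 9, and regulators, among them the hypoxia factor Hif1a, 2 and 4 of 9. Glucose transporters other than the 2 described gave 1 higher and 1 lower of 4, and regulators of the PFK-2 type 1 and 1 of 3. The higher gene of both these lists rested on the endothelial-led L2P12. That cell held 100% of the P5 positive counts of Slc2a10 and 99.7% of those of Pfkfb1, 2 genes looked up after their values were seen. Among cardiomyocyte-led cells Slc2a10 had no read, and the PFK-2 type gave 0 higher and 2 lower of 3, with a median of -2.75. Of the 2 higher glycogen genes, Pgm1, also looked up after its value was seen, had 99.9% of its P5 positive counts in L2P12. With cardiomyocyte-led cells Pgm1 was 76.6-fold lower at P5, and the glycogen genes gave 2 higher and 5 lower of 9. Among cardiomyocyte-led cells the 6 lists together gave 12 higher and 20 lower of 47, with a median of -0.80 beside -0.93 for all genes.

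**Figure D4:**
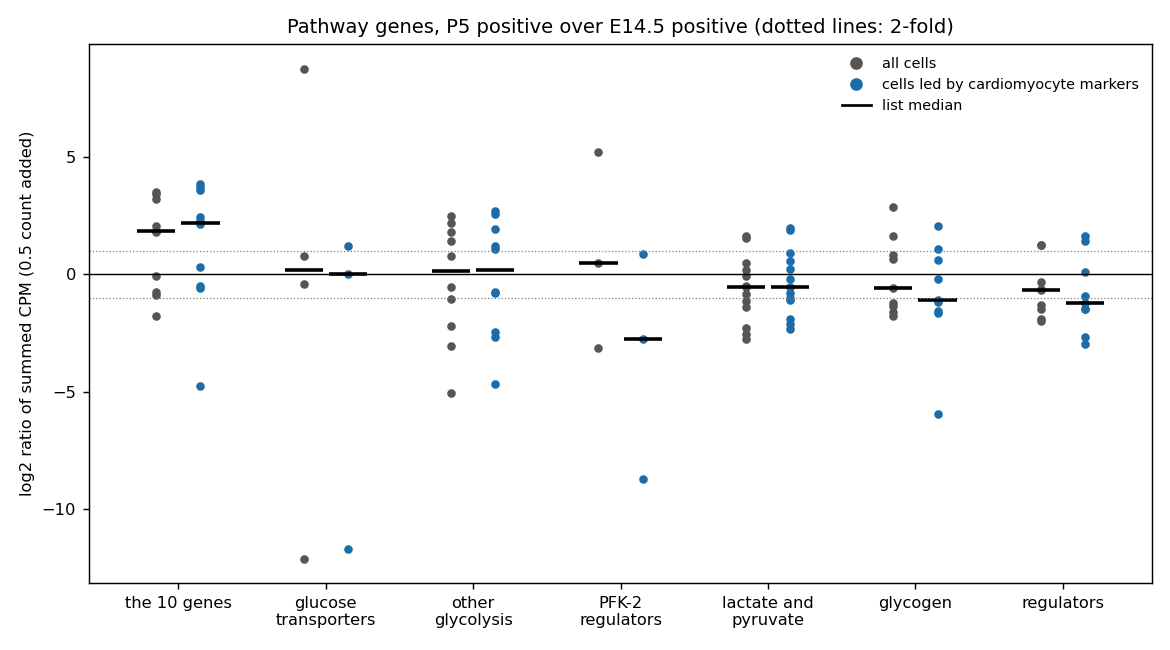
Log2 ratio of summed CPM, with 0.5 count added to each side, for the genes of each list in P5 positive over E14.5 positive cells; each point is 1 gene, grey for all cells and blue for cardiomyocyte-led cells, and lines are list medians. With all cells the 10 genes have a median of 1.84, and the medians of the 6 other lists lie between -0.65 and 0.48.

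At E14.5 the positive and negative cells were all led by cardiomyocyte markers, so the comparison sets the 2 reporter classes side by side at 1 age. None of the 10 genes was at least 2-fold higher in positive cells, 3 were at least 2-fold lower and 7 lay within 2-fold. Over 12632 tested genes, 22.4% were higher and 29% lower. The cells of the groups overlapped for all 10 genes.

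Negative cells had 261 CPM of Slc2a1 (259 to 263) against 106 CPM in positive cells, where it ran from 22.4 through 72.5 to 665 CPM. In negative cells it ran from 16.8 through 179 to 1172 CPM in N30. The log2 ratio was -1.31 (-1.33 to -1.28), or 2.47-fold lower, and -0.73 without N30 or -1.96 without G10. Pfkm had 26.2 CPM in positive cells, against 53.0 CPM in negative ones (52.0 to 54.0), from 12.3 through 55.4 to 133 CPM, with a log2 ratio of -1.02 (-1.07 to -0.97), or 2.03-fold. This lies just past the 2-fold limit. Without G6, G10, G28, N5, N7, N21, N23 or N25, each left out alone, Pfkm came within 2-fold. Then 2 genes rather than 3 were lower. Without N30, Slc2a1 came within 2-fold instead, and 2 genes were again lower. Pfkl had 1.74 and 5.42 CPM and a log2 ratio of -1.64 (-1.84 to -1.45). Eno3, at 491 and 813 CPM, and Hk2, at 60.4 and 107 CPM, were lower by less than 2-fold. Slc2a4, at 4.88 and 4.77 CPM, was nearly equal in sum.

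Ldha, at 470 and 437 CPM, differed little, with a log2 ratio of 0.10 (0.09 to 0.12) that was -0.01 with DESeq2's size factors. Ldhb had 428 CPM in positive cells and 587 CPM in negative ones, with a log2 ratio of -0.45 (-0.47 to -0.44). The Ldha share was therefore lower in negative cells, at 42.7% (42.5 to 42.9) against 52.3%, and the Ldha to Ldhb ratio was 1.47-fold higher in positive cells. By cell, the share in negative cells ran from 24% in N28 through 42.2% to 80.1% in N3, with 5 of 11 cells above 50%, and so spanned nearly the same range as in positive cells.

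The titles of E14.5 cells run from 1 to 10 and from 21 to 30, and what these numbers mean is not given in the sources used here. The Ldha share moved with them. Of positive cells numbered 1 to 10, 6 of 6 had a share above 50% (56.1 to 82.2%), and of those numbered 21 to 30, 0 of 4 did (31.2 to 49.8%). The total counts moved with the same numbers, at 8.40 to 12.8 M and 16.8 to 38.5 M per cell. In negative cells the share was above 50% in 3 of 5 cells of the first range and in 2 of 6 of the second. Summed, the positive and negative shares were 69.7% and 50.3% within the first range and 41.5% and 38.3% within the second. For Slc2a4, positive cells of the first range had 2.91 to 36.0 CPM and those of the second 0 to 0.292 CPM. In negative cells this was not so: 3 of 5 cells of the first range had no read (median 0), and 4 of 6 of the second had reads (median 0.844 CPM). The 3 genes that were lower in positive cells differed within the ranges. In the first range Slc2a1 was at 177 CPM in positive cells and 178 CPM in negative ones, but in the second at 63.7 and 295 CPM. For Pfkl these were 2.68 and 1.62 CPM in the first range, where positive cells were the higher, and 1.18 and 6.95 CPM in the second. Pfkm was lower in positive cells in both ranges, at 33.7 against 69.4 CPM and at 21.7 against 46.4 CPM. The part of depth or of the title number in these differences was not tested.

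The cells labelled P5 negative set other cell classes beside the P5 positive cells. Of the 10 genes, 7 stood at least 2-fold above them in P5 positive cells and 0 below, where 34.2% of 11566 tested genes were higher and 39.4% lower. Slc2a4 had no read in any of the 6 P5 negative cells, where 3 counts would be 0.0362 CPM. Against these 3 counts the P5 positive level is at least 1448-fold higher, a bound that covers counting error only. Eno3 had 5 reads in the P5 negative cells together, and every P5 positive cell lay above them. Pfkm was 41.4-fold higher and Ldhb 25.1-fold higher in P5 positive cells. Of the Pfkm reads of the P5 negative cells, 99.6% were in L2N9, at 43.4 CPM, and without that cell the log2 ratio of 5.37 was 12.75.

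Ldha was present in the P5 negative cells, at 377 CPM (373 to 381), from 13 through 262 to 692 CPM, while Ldhb was at 71.2 CPM, from 0.142 through 20.8 to 222 CPM. The Ldha share there was 84.1% (83.7 to 84.5), above 50% in 5 of 6 cells and 39.1% in L2N12, the cell led by fibroblast and mural markers. The Ldha to Ldhb ratio was 34.0-fold lower in P5 positive cells. Hk1, at 109 CPM in P5 negative cells, came to 95% from L2N4, and its log2 ratio of -0.54 became 3.67 without that cell. For Slc2a1 the log2 ratio of 1.29 (1.19 to 1.40) became -1.69 without L2P12 and 2.70 without L2N12, and for Pfkl that of 1.36 became -0.41 without L2P8 and 4.02 without L2N7.

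Between the negative cells of both ages, 6 of the 10 genes were at least 2-fold lower at P5 and 0 higher, beside 41.7% and 33.6% of 12551 tested genes. These were Slc2a1 (20.7-fold), Slc2a4 (at least 132-fold), Hk2, Pfkm (9.16-fold), Eno3 and Ldhb (8.24-fold). Hk2 had 107 CPM at E14.5 and 0.0964 CPM at P5, where all of its reads were in L2N12. Without L2N7, 8 of the 10 genes were lower and 1 was higher. The leading marker class differs between these groups in every cell, so age and cell class cannot be told apart here.

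Across the 21 E14.5 cells, the genes most like each of the 10 in log2(CPM + 1) were sought among about 6068 genes with at least 10 CPM in at least 7 cells. The points share depth and the title numbers described above, and the highest values of so many correlations are high by selection. Aldoa was nearest to Pgm2 (Pearson r 0.89) and to Tpi1 (0.82), the triose-phosphate isomerase that acts next to aldolase. The genes near Ldhb included Atp5a1 (0.82), which encodes a subunit of mitochondrial ATP synthase. Eno3 was nearest to Ndufa8 (0.76), a subunit of mitochondrial complex I, and Got1 (0.74), an aspartate aminotransferase. Ldha was nearest to Gnai3 (0.78) and Nudt9 (0.75). For Slc2a1 they were Sar1a (0.77) and Nfkbiz (0.71), for Slc2a4 Ogn and Gm20300 (both 0.82), for Hk1 Bcap29 (0.78) and Nfil3 (0.77), and for Hk2 Hsp90b1 (0.82) and Bag1 (0.80). For Pfkm they were Asb11 (0.78) and Fosb (0.73), and for Pfkl Dancr (0.77) and Gm11974 (0.74). Slc2a4 and Pfkl themselves fell short of the level asked of the other genes. Slc2a4 had no read in 1 positive and 5 negative cells. Ogn, Nfkbiz and Dancr had medians of 0, 0.300 and 0.836 CPM, so their r values lean on many cells at or near 0. Among the 10 genes themselves the closest pairs were Hk2 with Aldoa (0.52) and Eno3 with Ldhb (0.50).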

How the data were processed

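The authors deposited 1 table of raw read counts, whole numbers per gene for 33 single cells. Per the submitters' processing notes, CASAVA 1.8.2, STAR 2.4.0j, HTSeq 0.6.1p1 and mm10 were used; the annotation and the rule for reads that match several places are not given in the sources used here. Amplified reads are not independent molecules, so intervals cover counting error only.

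Counts were added up per group and scaled to counts per 1000000 (CPM) with Python 3.11.15, pandas 2.3.3 and scipy 1.17.1. Ratios needed at least 10 counts over both groups and have exact (Clopper-Pearson) intervals at 95%. With 1 sample a group, called means at least 2-fold. A group without reads was set to 3 counts. Exon lengths and coordinates come from GENCODE M21 (mm10, 1-based). On simulated counts for P5 positive over E14.5 positive cells, 94.0% of the intervals over 200 changed genes of 14861 covered the truth. This checks the calculation for counting error only and says nothing about differences between cells or about amplification. No library was present as 2 cells (highest r 0.867, G1 and G2).

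The 10 genes, the pathway lists, the markers and the rules were chosen with earlier results of these data known. Other genes were named by rule: pathway genes at least 4-fold different between P5 positive and E14.5 positive cells with at least 50 CPM in the higher group, and the 2 genes most like each of the 10. Pfkp, Eno1, Hif1a, Slc2a10, Pfkfb1 and Pgm1 fall outside it and were chosen after their values were seen. Alternatives were equal weights for cells, the median cell, edgeR 4.0.16 TMM factors, DESeq2 1.42.0 size factors (R 4.3.3), cardiomyocyte-led cells, title numbers, and leaving out each cell. Some items are not reported here.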

Additional observations from a re-analysis of the deposited data

Results flagged for a closer look

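Single cells that stood apart from their group by Dixon's 95% limit are given by value. In all, 32 combinations of gene and group with 6 to 10 cells were looked at, and 13 stood apart. Chance gives about 1.60 only for independent, normally distributed values. The CPM of single cells, with many zeros, are not such values, so the 13 cannot be judged against that number. E14.5 negative cells, 11 in number, were not looked at in this way. Among E14.5 positive cells, G10 had 665 CPM of Slc2a1 (next 134) and 36.0 CPM of Slc2a4 (next 13), and G25 had 454 CPM of Aldoa (next 264).

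Among P5 positive cells, L1P5 had 1098 CPM of Hk1 (next 113), L2P3 had 159 CPM of Hk2 (next 54.2) and L2P8 had 53.9 CPM of Pfkl (next 10.1). The endothelial-led L2P12 had 115 CPM of Slc2a1 (next 21.8) and an Ldha share of 70.2% (next 23.1%).

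Among the cells labelled P5 negative, the endothelial-led L2N4 had 1663 CPM of Hk1 (next 32.4) and 0.583 CPM of Eno3 (next 0.142). That Eno3 value is only 3 reads. L2N9, also endothelial-led, had 43.4 CPM of Pfkm (next 0.142), and L2N7 had 20.1 CPM of Pfkl (next 2.56). L2N12, led by fibroblast and mural markers, had 0.475 CPM of Hk2, where the other 5 cells had no read.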

How the results depend on the processing

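Of 40 ratios (10 genes in 4 comparisons), none of at least 2-fold changed direction with equal weights, TMM or DESeq2 factors; TMM and DESeq2 moved the median of all genes by 0.16 and 0.39 in P5 positive over E14.5 positive cells. Of the ratios of at least 2-fold, 3 reversed under some setting. Pfkl in E14.5 positive over negative cells was 0.73 within title numbers 1 to 10. Slc2a1 in P5 positive over P5 negative cells was -0.93 by the median cell, -1.69 without L2P12 and 2.70 without L2N12, and Pfkl there was -0.41 without L2P8 and 4.02 without L2N7. The counts that follow are of genes at least 2-fold higher or lower, without a share over all genes under the same setting. By the median cell, 4 genes were lower in P5 positive than in E14.5 positive cells and 1 was higher in E14.5 positive than negative cells. With equal weights, 5 were lower in E14.5 positive than negative cells and 1 was higher in P5 negative than E14.5 negative cells. Leaving out each cell in turn gave 6 to 6 higher and 1 to 2 lower genes in P5 positive over E14.5 positive cells (2 without L2P3, L2P10 or G27), and 0 to 0 higher and 2 to 4 lower in E14.5 positive over negative cells (4 without N28). It gave 6 to 8 higher and 0 to 1 lower in P5 positive over P5 negative cells (6 without L2P8, 8 without L2P3 or L2N4, 1 lower without L1P5, L2P12 or L2N7), and 0 to 1 higher and 6 to 8 lower in P5 negative over E14.5 negative cells (1 and 8 without L2N7). The Ldha share by the median cell was 57.5% in E14.5 positive, 42.2% in E14.5 negative, 20% in P5 positive and 93.8% in P5 negative cells, and the summed share was 11.9% in the cardiomyocyte-led P5 positive cells. Without 1 cell the summed share ran from 50.1 to 56.0%, 40.7 to 46.2%, 11 to 23.3% (without L2P8) and 68.7 (without L2N7) to 93.0%, in that order. The cause of these changes was not tested. No paired analysis was possible because no model was fitted with 1 sample a group, and what the numbers shared by some titles (such as G5 and N5) mean is not given in the sources used here. Depth limits L1P5, where 3 counts are 1.18 CPM. Reads were found for 3991 genes in L1P5 and 3747 in L1N3, beside 6073 in L2P3 and 2994 in L2N4. The part of the L1 and L2 in the P5 titles was not tested.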
